A study of Mus musculus with 6 samples.

Results

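The genes described here build, guard and empty the endoplasmic reticulum, the compartment in which a cell folds the proteins it secretes or displays on its surface. The set was a list of 34 named genes of the unfolded protein response, the folding machinery, the protein-conducting channel, the degradation route and the export coat. Each gene was represented by the probe set with the highest mean among those that carry its symbol alone. Of the 34 genes, 33 had such a probe set and all 33 passed the filter on low values, out of 11147 genes tested and 19938 genes named on the array. Sec61g, the small subunit of the channel, was represented only by 4 probe sets that also carry the symbols of other genes, so no value is given for it.

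RNA came from CD8+ T cells of the spleen of female C57BL/6 mice that carry the Pmel-1 T cell receptor transgene, which recognises the melanoma antigen gp100. IL-12 cells and IL-2 cells were both primed with that antigen over 4 days and received IL-12 or IL-2 over 6 days, whereas naive cells went into the study uncultured, after a sort for CD8 and Thy1.1. There were 2 Affymetrix arrays in each of the 3 groups, and the number of arrays limits the precision. All groups share the strain, the sex and the transgene, so every population carries a receptor of the same specificity. For the primed cells no sort is described. Against naive cells, antigen, cytokine and time in culture change together and cannot be told apart. Whether the 2 arrays of a group stem from different animals or cultures is not stated, so the p-values cover only the spread between these arrays, and that spread may be technical.

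Proteins enter the endoplasmic reticulum through the Sec61 channel, lose their signal peptide, and are folded by chaperones of the Hsp70 and Hsp90 families, by lectins and by enzymes that form disulphide bonds. When unfolded protein builds up, the sensors IRE1 (Ern1), PERK (Eif2ak3) and ATF6 (Atf6) signal to the nucleus and the ribosome; IRE1 does so by splicing the messenger RNA of the transcription factor XBP1. T cells make little secreted protein at rest and release cytokines and cytotoxic granule proteins once activated.

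ATF6 and XBP1 are known to act through the endoplasmic reticulum stress response element (ERSE), which reads CCAAT, then any 9 bases, then CCACG. Because that element is the best known sequence shared by genes of this pathway, promoters of the members were searched for it. RefSeq promoters (GRCm38.p6, 250 bases before to 50 bases after the start site) were given for 28 of the 34 members, and those of Sec61a1, Spcs3, Derl1, Manf, Atf6 and Hyou1 were not used here. An exact match on either strand stood in the promoters of 8 of 28 members (28.6%), against 37 of 27025 genes in the whole table (0.137%). The related element ERSE-II reads ATTGG, any 1 base, then CCACG, and stood in 2 of 28 members (7.14%) and in 12 of all genes (0.0444%). TGACGTGG, the core of an element bound by XBP1 and ATF6, stood in Sec24d alone among the members (3.57%, against 0.714% of all genes). No match of these motifs overlapped another in the member promoters. Because these elements are known from genes of this pathway and the members were listed by pathway, a higher share among them was set in advance. The shares describe the list and are not a result of the arrays. A match describes letters in a window and is not a measured binding site.

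The stretches with a match upstream of the start site are shown 5′ to 3′ on the strand of the gene, with the fixed letters of the element in capitals. They are grouped by what the array showed: the first 6 belong to genes that rose in IL-12 against naive cells, the next 3 to genes that did not, and the last holds the TGACGTGG core.
Pdia6: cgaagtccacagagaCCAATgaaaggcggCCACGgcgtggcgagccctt
Creld2: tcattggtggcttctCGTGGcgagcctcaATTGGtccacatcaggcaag
Hsp90b1: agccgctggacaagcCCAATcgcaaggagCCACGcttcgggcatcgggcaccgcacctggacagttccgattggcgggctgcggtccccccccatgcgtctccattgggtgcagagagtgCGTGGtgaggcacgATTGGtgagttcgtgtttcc
Hspa5: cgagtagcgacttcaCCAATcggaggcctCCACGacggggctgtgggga
Canx: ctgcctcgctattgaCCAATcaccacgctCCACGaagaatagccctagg
Calr: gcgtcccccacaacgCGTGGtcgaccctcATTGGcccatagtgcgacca
Dnajc3: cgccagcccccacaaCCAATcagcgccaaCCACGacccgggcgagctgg
Syvn1: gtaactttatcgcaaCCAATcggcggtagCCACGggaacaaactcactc
Herpud1: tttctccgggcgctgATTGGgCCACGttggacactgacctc
Sec24d: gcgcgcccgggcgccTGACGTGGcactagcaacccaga

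In GRCm38.p6 coordinates the Pdia6 stretch lies at chr12:17266476-17266524 on the plus strand, that of Creld2 at chr15:88819505-88819553 on the plus strand and that of Hspa5 at chr2:34772010-34772058 on the plus strand. The Hsp90b1 stretch lies at chr10:86705518-86705671, that of Canx at chr11:50325785-50325833 and that of Calr at chr8:84847060-84847108, all on the minus strand. On the plus strand lie the stretches of Dnajc3 (chr14:118937812-118937860), Syvn1 (chr19:6046517-6046565), Herpud1 (chr8:94386362-94386402) and Sec24d (chr3:123267455-123267492). All of them lie just upstream of the annotated start of the gene named. Hsp90b1 held 2 copies in opposite orientations, and Creld2 and Calr held the element in reverse. Dnajb11 held an ERSE-II from base 8 to base 18 after its start site.

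**Figure D1:**
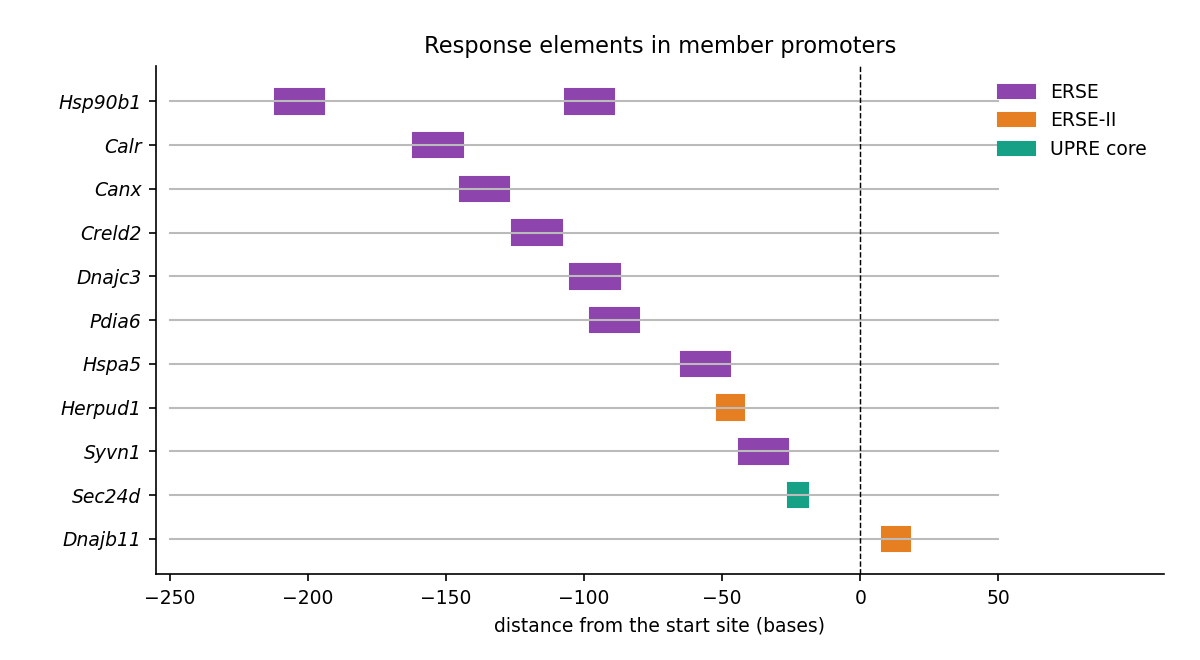
Position of each exact element match in the promoters of 11 members, with the distance from the start site in bases on the horizontal axis and a grey line for the 300 bases searched. Matches of ERSE lie between positions -212 and -26, and the match in Dnajb11 lies downstream of the start site.

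Values below are log2 RMA values as deposited, differences are log2 fold changes ± the standard error that limma fitted over all 6 arrays, and adjusted p is the Benjamini-Hochberg value over the 11147 tested genes, with a threshold of 0.05. The CD8 T cell markers were high on every array: Cd8a read 12.17 and 12.12 in IL-12, 12.26 and 12.36 in IL-2 and 12.61 and 12.66 in naive cells. Arrays of a group correlated at 0.992 (IL-12), 0.994 (IL-2) and 0.986 (naive) across the tested genes, a measure over genes and not over replicates. The lowest array value of any member was 7.61, above the 4.96 of the highest group mean of a Y-linked gene, which female cells lack.

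In IL-12 cells compared with IL-2 cells, a few endoplasmic reticulum genes were higher and none was called lower. The sensor gene Ern1 stood apart with a 1.83-fold rise, followed by the disulphide isomerase gene Pdia6 and the translocon gene Ssr1, each 0.59 higher on the log2 scale. Hyou1, Sec24d, Dnajb11, P4hb and Atf6 rose by 1.37-fold to 1.30-fold. The other 25 members did not pass the test, among them Xbp1 and Hspa5.

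Of 33 members, 8 rose (24.2%), where 9.82% of all tested genes were called higher. These 3 members were the ones called over 1.5-fold higher, against 5.09% of all tested genes. None of the members was called lower by limma, where 11.0% of all genes were. At an unadjusted p under 0.05, 11 members were higher and 1, Dnajb9, was lower. The median log2 fold change of the members was 0.19, against 0.02 for all tested genes. Both IL-12 arrays lay above both IL-2 arrays for 22 of 33 members, where 36.1% of all genes had such a gap. The reverse held for 2 members, Dnajb9 and Dnajc3, against 33.4% of all genes.

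The count of 8 rested on having all 4 primed arrays. It was 2 without IL-12 replicate 1 or IL-2 replicate 1 (Ern1 and Pdia6 each time) and 1 without IL-12 replicate 2 or IL-2 replicate 2 (Ern1). Over all genes there were between 737 and 1219 calls when any of these arrays was left out, against 2321 with all 6. Fitting the 4 primed arrays alone gave 11 members higher. Over all genes that fit called 1695 higher, against 1095 with all 6 arrays.

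Among the sensors, Ern1, which encodes the kinase and nuclease IRE1, read 8.86 and 8.82 in IL-12 cells, 7.98 and 7.95 in IL-2 cells and 7.93 and 7.99 in naive cells. The IL-12 arrays stood above all others, and the IL-2 arrays overlapped the naive arrays. The difference of IL-12 from IL-2 was 0.87 ± 0.10 (SE, n = 2 arrays per group; adjusted p = 0.000544), and it passed under all 15 alternative settings, with adjusted p of at most 0.0118. Against naive cells Ern1 rose by 0.88 ± 0.10 in IL-12 cells (adjusted p = 8.59e-05), and in IL-2 cells the difference was 0.01 ± 0.10 (95% interval -0.21 to 0.23; adjusted p = 0.955).

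Atf6, the membrane-bound transcription factor released by cleavage in the Golgi, read 9.83 and 9.89 in IL-12, 9.54 and 9.42 in IL-2 and 8.26 and 8.21 in naive cells. The 3 groups did not overlap, in the order IL-12, IL-2, naive. Atf6 rose by 1.62 ± 0.10 in IL-12 cells against naive cells (adjusted p = 2.73e-06) and by 1.25 ± 0.10 in IL-2 cells against naive cells (adjusted p = 2.08e-05). The difference between IL-12 and IL-2 cells was 0.37 ± 0.10 (adjusted p = 0.0319) and lost its call without any of the 4 primed arrays (adjusted p up to 0.233).

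Xbp1, the transcription factor whose messenger RNA IRE1 splices, read 10.47 and 10.49 in IL-12, 10.48 and 10.49 in IL-2 and 9.66 and 10.05 in naive cells. The primed groups overlapped and both lay above the naive arrays. Total Xbp1 rose by 0.63 ± 0.13 against naive cells in each primed group (adjusted p = 0.00359 for IL-12 and 0.00488 for IL-2). Between IL-12 and IL-2 cells it differed by -0.01 ± 0.13, with a 95% interval from -0.31 to 0.30 (adjusted p = 0.979). The value is a total in which spliced and unspliced Xbp1 were not separated.

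Eif2ak3, which encodes PERK, the kinase that slows translation by phosphorylating eIF2α, read 9.85 and 9.93 in IL-12, 9.75 and 9.77 in IL-2 and 9.13 and 9.05 in naive cells. It rose by 0.80 ± 0.10 in IL-12 and by 0.67 ± 0.10 in IL-2 cells against naive cells (adjusted p = 0.000166 and 0.000775). Between the primed groups the difference was 0.13 ± 0.10 (95% interval -0.09 to 0.36; adjusted p = 0.385). Of these 4 genes, Ern1 was the one with no call in IL-2 against naive cells.

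**Figure D2:**
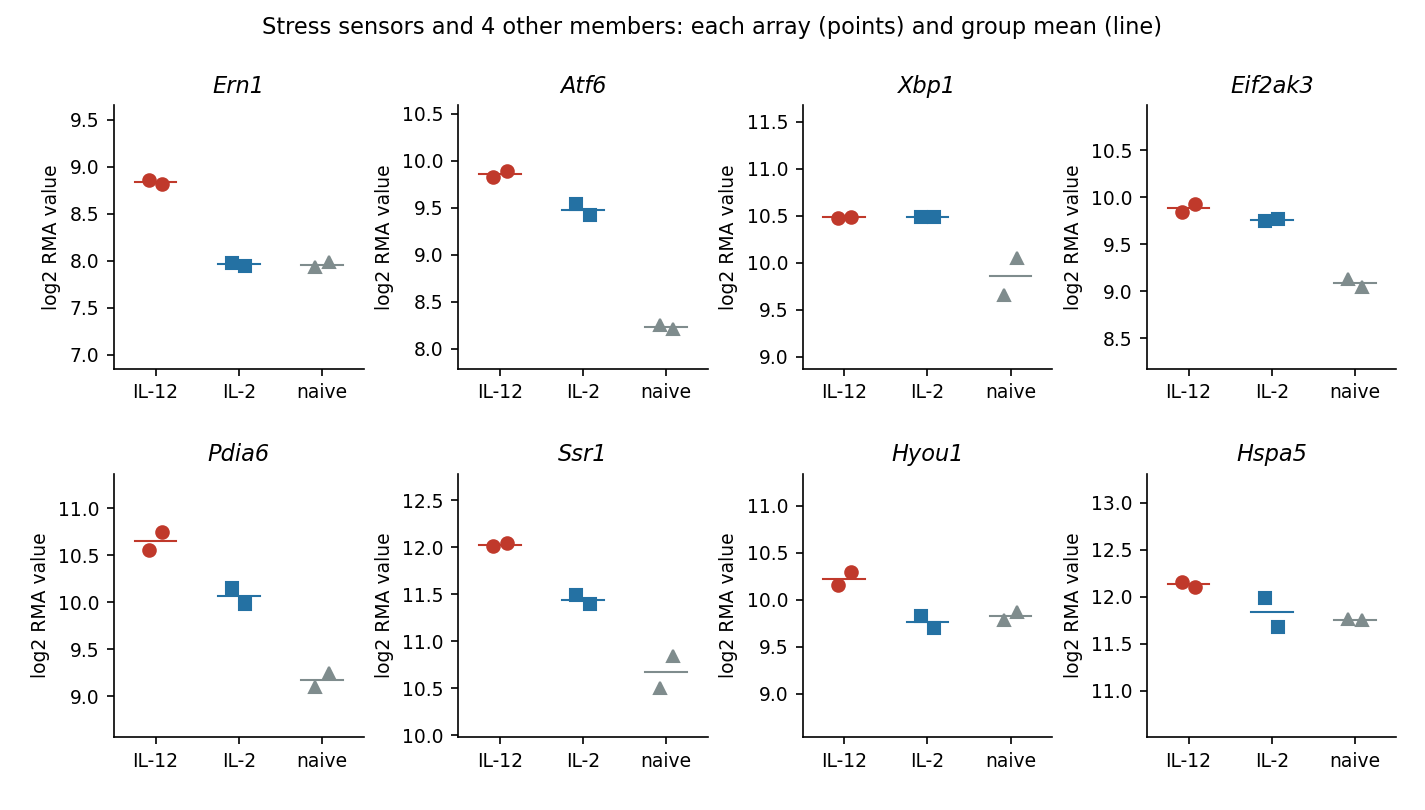
Log2 RMA value of 8 members on each array (points) with the group mean (line), for IL-12, IL-2 and naive cells from left to right; every panel has an axis of the same length, placed around its own centre. Ern1 is near 8.8 on the IL-12 arrays and near 8.0 on all others, whereas Xbp1 is near 10.5 on all 4 primed arrays.

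The chaperones were led by genes of cofactors rather than by the main chaperones themselves. Sdf2l1, a stress-induced partner of the J-domain chaperones, read 11.73 and 11.82 in IL-12, 11.47 and 11.42 in IL-2 and 9.33 and 10.12 in naive cells. It rose 4.15-fold in IL-12 and 3.30-fold in IL-2 cells against naive cells (adjusted p = 5.94e-05 and 0.000283), the largest measured rise of any member in both comparisons. The naive arrays differed by 0.79 on the log2 scale, so the size of the rise depends on which naive array is used: without naive replicate 1 it was 1.66 in IL-12 and 1.33 in IL-2 cells on the log2 scale.

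Dnajb11, a J-domain cochaperone of BiP, read 9.99 and 10.18 in IL-12, 9.78 and 9.58 in IL-2 and 8.92 and 9.04 in naive cells. The groups did not overlap. Dnajb11 rose by 1.11 ± 0.12 in IL-12 and by 0.70 ± 0.12 in IL-2 cells against naive cells (adjusted p = 7.09e-05 and 0.00159). The call between IL-12 and IL-2 cells (0.41 ± 0.12; adjusted p = 0.0432) was close to the threshold and was kept under 8 of 15 settings.

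Hyou1, a large Hsp70-like chaperone that recharges BiP, read 10.15 and 10.29 in IL-12, 9.83 and 9.70 in IL-2 and 9.78 and 9.87 in naive cells. Like Ern1, it was high on the IL-12 arrays while the IL-2 and naive arrays overlapped. Hyou1 was 0.46 ± 0.11 higher in IL-12 than in IL-2 cells (adjusted p = 0.0194) and 0.40 ± 0.11 higher in IL-12 than in naive cells (adjusted p = 0.0119). Against naive cells the IL-2 difference was -0.06 ± 0.11 (95% interval -0.30 to 0.19). The first call was lost without any of the 4 primed arrays (adjusted p up to 0.17) and the second without IL-12 replicate 2 (0.0952).

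Hspa5 encodes BiP, the Hsp70 of the endoplasmic reticulum and the gene most used to report stress there. It read 12.16 and 12.10 in IL-12, 11.99 and 11.68 in IL-2 and 11.76 and 11.75 in naive cells. Both IL-12 arrays were highest, and the IL-2 arrays lay on either side of the naive arrays. Hspa5 rose by 0.38 ± 0.12 in IL-12 against naive cells (adjusted p = 0.0272), a call lost without either IL-12 array, without either naive array, under quantile normalization and with arrays centred on the tested genes (adjusted p up to 0.121). The difference between IL-12 and IL-2 cells was 0.30 ± 0.12 (adjusted p = 0.12).

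Hsp90b1, which encodes the Hsp90 paralogue GRP94, read 11.84 and 11.98 in IL-12, 11.84 and 11.63 in IL-2 and 11.30 and 11.31 in naive cells. Every primed array lay above the naive ones, and Hsp90b1 rose by 0.60 ± 0.11 in IL-12 and by 0.43 ± 0.11 in IL-2 cells against naive cells (adjusted p = 0.00174 and 0.0138). The IL-2 call was lost without IL-2 replicate 1 (adjusted p = 0.135). Manf, a secreted protein that binds BiP, rose 1.74-fold in IL-12 and 1.41-fold in IL-2 cells against naive cells (adjusted p = 0.000159 and 0.00352). The lectin chaperone genes Canx and Calr rose by 0.46 ± 0.11 and 0.29 ± 0.10 in IL-12 against naive cells (adjusted p = 0.00559 and 0.0336). The call of Calr was lost under 7 of 15 settings, which included leaving out any of the 4 primed arrays or naive replicate 1 (adjusted p up to 0.163).

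The J-domain genes Dnajb9 and Dnajc3 did not follow Dnajb11. Dnajb9, whose product (ERdj4) binds IRE1 and holds it inactive, read 9.61 and 9.73 in IL-12, 10.19 and 9.86 in IL-2 and 9.75 and 9.93 in naive cells. The IL-12 arrays were the lowest, with a difference of -0.36 ± 0.13 from IL-2 cells that did not pass the test (adjusted p = 0.0927; between 0.0625 and 0.494 under the alternatives). Dnajc3, whose product is an inhibitor of PERK, differed by -0.10 ± 0.10 between IL-12 and IL-2 cells (adjusted p = 0.538), and its 2 probe sets held the same values.

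All 5 genes of enzymes that make and rearrange disulphide bonds rose in IL-12 against naive cells. Pdia6 read 10.55 and 10.75 in IL-12, 10.15 and 9.98 in IL-2 and 9.10 and 9.25 in naive cells. The groups stood clear of each other. Pdia6 rose 2.79-fold in IL-12 and 1.86-fold in IL-2 cells against naive cells (adjusted p = 1.38e-05 and 0.000466) and was 0.59 ± 0.12 higher in IL-12 than in IL-2 cells (adjusted p = 0.0111, lost without IL-12 replicate 2 or IL-2 replicate 2, up to 0.116). The PDIA6 protein is known to interact with IRE1.

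P4hb encodes the classical protein disulphide isomerase and read 11.60 and 11.52 in IL-12, 11.20 and 11.13 in IL-2 and 10.63 and 10.82 in naive cells. Again the groups did not overlap. P4hb was 0.40 ± 0.11 higher in IL-12 than in IL-2 cells (adjusted p = 0.0338), a call lost under 6 of 15 settings, including without any of the 4 primed arrays (up to 0.214). Against naive cells it rose by 0.84 ± 0.11 in IL-12 and by 0.44 ± 0.11 in IL-2 cells (adjusted p = 0.000216 and 0.00995, the IL-2 call lost without IL-2 replicate 1, adjusted p = 0.0826).

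Creld2, a stress-induced gene with isomerase activity, read 10.60 and 10.66 in IL-12, 10.39 and 10.19 in IL-2 and 9.12 and 9.43 in naive cells. It rose 2.56-fold in IL-12 and 2.02-fold in IL-2 cells against naive cells (adjusted p = 3.94e-05 and 0.000364). All 6 arrays fell in the order of their groups, but IL-12 minus IL-2, at 0.34 ± 0.13, did not pass (adjusted p = 0.103). Pdia3, which works with calnexin and calreticulin on glycoproteins and MHC class I, rose by 0.84 ± 0.14 in IL-12 and by 0.58 ± 0.14 in IL-2 cells against naive cells (adjusted p = 0.000969 and 0.00971, the second lost without IL-2 replicate 1, 0.0838). Pdia4 rose by 0.46 ± 0.11 in IL-12 against naive cells (adjusted p = 0.00644), a call lost when its 2 probe sets were averaged and without IL-12 replicate 2. The other Pdia4 probe set lay between 6.99 and 7.23 on every array and showed no such gap.

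At the channel and the signal peptidase, the subunits did not move together. Ssr1, the alpha subunit of the translocon-associated protein complex, read 12.01 and 12.04 in IL-12, 11.49 and 11.39 in IL-2 and 10.50 and 10.84 in naive cells. The groups did not overlap, and Ssr1 rose 2.56-fold in IL-12 and 1.71-fold in IL-2 cells against naive cells (adjusted p = 3.24e-05 and 0.00141). Between IL-12 and IL-2 cells it differed by 0.59 ± 0.13 (adjusted p = 0.014), a call lost without any of the 4 primed arrays (up to 0.121). Ssr3, the gamma subunit of the same complex, read 11.01 and 10.96 in IL-12, 10.90 and 10.83 in IL-2 and 9.78 and 10.38 in naive cells. It rose 1.87-fold and 1.73-fold in IL-12 and IL-2 cells against naive cells (adjusted p = 0.00207 and 0.00613), and the primed groups differed by 0.12 ± 0.18 (95% interval -0.28 to 0.52). The naive arrays of Ssr3 differed by 0.60 on the log2 scale. Over the 15 settings its rise ran from 0.60 to 1.20 in IL-12 and from 0.49 to 1.09 in IL-2 cells.

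Sec61a1, the pore-forming subunit of the channel, rose by 0.58 ± 0.15 in IL-12 and by 0.44 ± 0.15 in IL-2 cells against naive cells (adjusted p = 0.00812 and 0.0358). The first call was lost without IL-12 replicate 1 (0.0524), and the second was lost under 8 of 15 settings, among them leaving out any array but naive replicate 2 (up to 0.135). Sec61b, the beta subunit, ran the other way. It read 9.39 and 9.25 in IL-12, 9.28 and 9.10 in IL-2 and 9.90 and 9.83 in naive cells, so every primed array lay below the naive arrays. It fell by 0.54 ± 0.11 on the log2 scale in IL-12 and by 0.67 ± 0.11 in IL-2 cells against naive cells (adjusted p = 0.00285 and 0.00137) under all 15 settings. The other probe sets of Sec61b, annotated with the same transcripts, read 9.16 and 9.08 or 8.30 and 8.17 in IL-12, 9.18 and 9.01 or 8.41 and 8.08 in IL-2, and 9.55 and 9.30 or 8.71 and 8.55 in naive cells, also lowest in primed cells. Their falls from naive cells were smaller than those of the probe set used. Transcripts of near-identical copies, where a genome holds them, cannot be separated by a probe set.

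Of the signal peptidase subunits, Spcs1 and Spcs3 rose in both primed groups, by between 0.36 and 0.54 on the log2 scale (adjusted p from 0.00364 to 0.0335). Spcs1 lost its IL-12 call without IL-12 replicate 1 and its IL-2 call without IL-2 replicate 1 or naive replicate 1. Spcs3 lost its IL-2 call under 5 of 15 settings, among them leaving out either IL-2 array or naive replicate 1. Spcs2 differed from naive cells by 0.29 ± 0.11 in IL-12 and 0.30 ± 0.11 in IL-2 cells and lay just outside the threshold (adjusted p = 0.0523 and 0.0508), and it passed under 4 of 15 settings in each comparison. None of the 3 passed the test between IL-12 and IL-2 cells, with differences of 0.02 for Spcs1, -0.02 for Spcs2 and 0.18 for Spcs3.

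Both export coat genes among the members rose in each primed group against naive cells. Sec24d, a cargo-binding subunit of the COPII coat that carries proteins to the Golgi, read 8.72 and 8.73 in IL-12, 8.38 and 8.25 in IL-2 and 7.61 and 7.75 in naive cells. The groups did not overlap, and Sec24d was 2.06-fold higher in IL-12 and 1.55-fold higher in IL-2 cells than in naive cells (adjusted p = 5.04e-05 and 0.00151). It was 0.41 ± 0.11 higher in IL-12 than in IL-2 cells (adjusted p = 0.0264), a call lost without any of the 4 primed arrays (up to 0.211). Sec23b, the coat's other inner subunit, rose by 0.64 ± 0.12 in IL-12 and by 0.41 ± 0.12 in IL-2 cells against naive cells (adjusted p = 0.00174 and 0.021, the second lost without either IL-2 array, without naive replicate 1 and under quantile normalization). Coat genes outside the members were mixed. Against naive cells Sec24b (-0.46 in IL-12, -0.33 in IL-2) and Sec24c (-0.37, -0.29) were called lower in both primed groups. Sec13 (0.62, 0.32) and Sar1b (0.96, 0.82) were called higher in both, and Sar1a in IL-12 cells alone. Sec23a, Sec24a and Sec31a were not called.

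The 5 members of the route that returns misfolded proteins to the cytosol for degradation gave no rises. None of them was called higher by limma in any of the 3 comparisons, nor at an unadjusted p under 0.05. Herpud1, a stress-induced scaffold of the ubiquitin ligase complex, fell by 0.39 ± 0.13 in IL-2 against naive cells (adjusted p = 0.0371), a call lost under 7 of 15 settings, among them leaving out any array but naive replicate 1 (up to 0.197). The mannosidase-like gene Edem1 read 11.67 and 11.62 in IL-12, 11.61 and 11.55 in IL-2 and 11.90 and 11.80 in naive cells. Every primed array of Edem1 lay below the naive arrays, with differences of -0.20 ± 0.10 for IL-12 and -0.27 ± 0.10 for IL-2 (adjusted p = 0.114 and 0.0526). The fall of Edem1 passed under 5 of 15 settings in IL-2 cells and, in IL-12 cells, under quantile normalization alone. The ligase gene Syvn1, its adaptor Sel1l and the membrane channel gene Derl1 differed from naive cells by between -0.08 and 0.15 in either primed group and passed no test. By role, 5 of 5 disulphide enzymes, 2 of 2 export genes and 8 of 10 chaperones were called higher in IL-12 than in naive cells. So were 5 of 7 genes of the channel and peptidase, and Ern1, Eif2ak3, Atf6 and Xbp1. Over all tested genes 31.2% were called higher, and each of these groups is small.

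**Figure D3:**
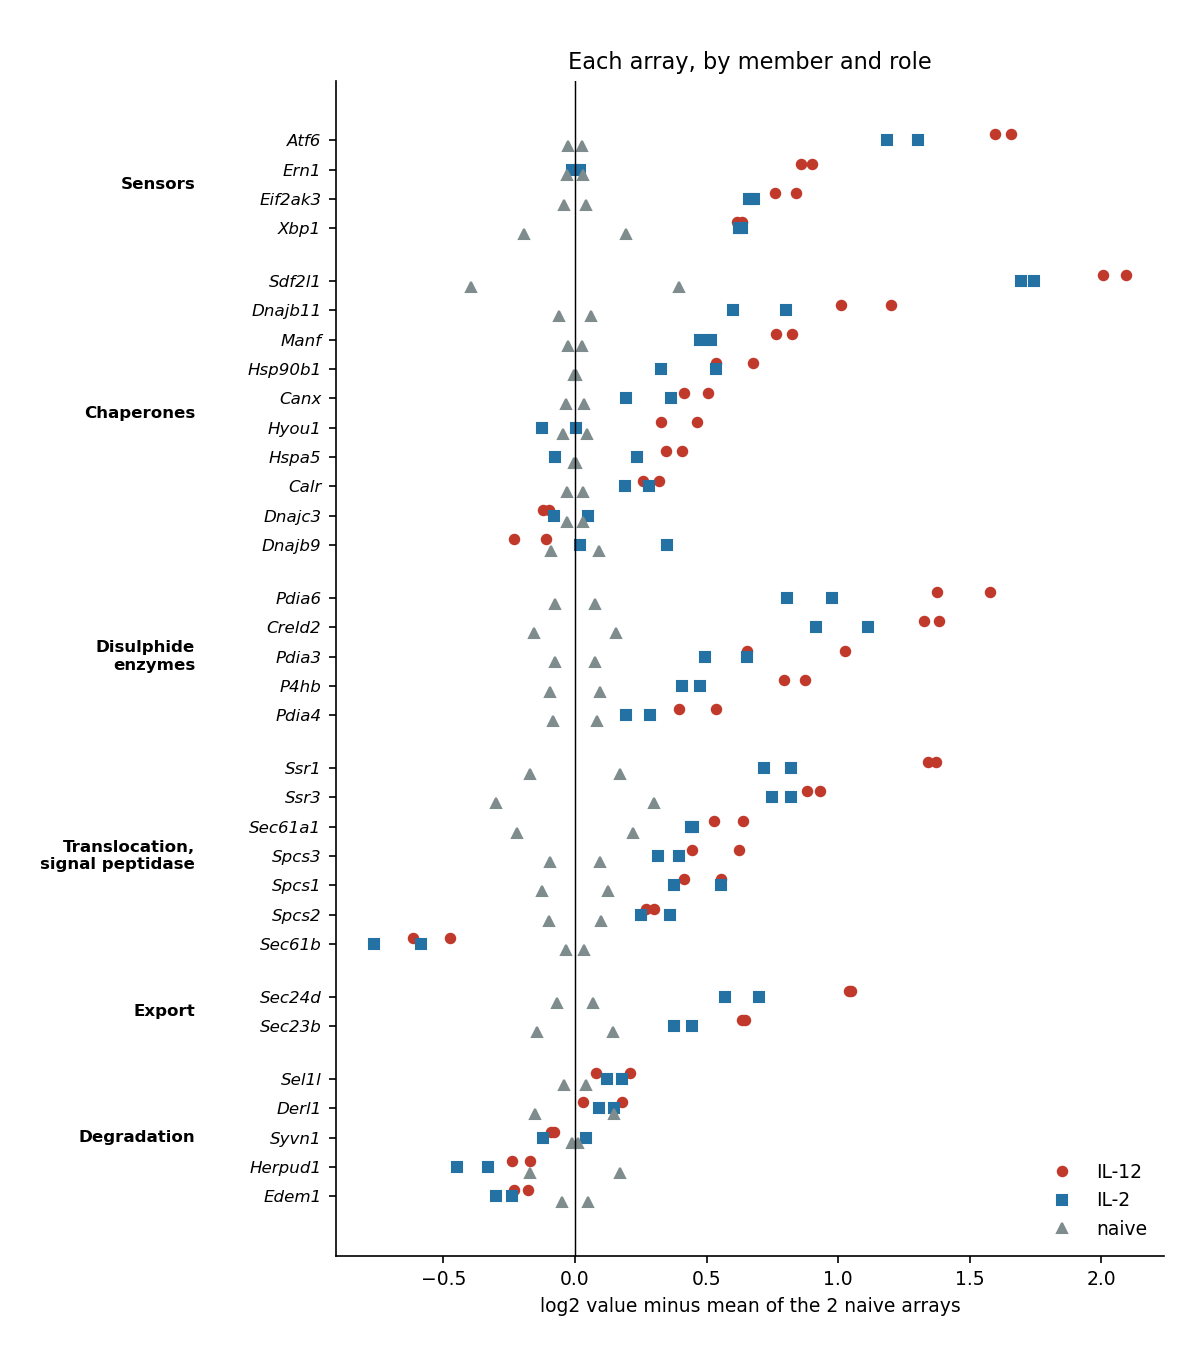
Log2 value of each array minus the mean of the 2 naive arrays, for the 33 members in rows grouped by role; circles are IL-12, squares IL-2 and triangles naive arrays. Sdf2l1 and Atf6 lie farthest to the right, Sec61b lies to the left in both primed groups, and the 5 degradation genes have mean differences from naive cells between -0.39 and 0.15.

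In IL-2 cells compared with naive cells, 18 of 33 members rose (54.5%) and 2 fell (6.06%), where 25.8% of all tested genes were called higher and 19.9% lower. Those that fell were Sec61b and Herpud1. The members' median log2 fold change was 0.41, against 0.01 for all tested genes, and it was 0.26 without naive replicate 1. Both IL-2 arrays lay above both naive arrays for 23 members, against 38.7% of all genes, and below them for 3, against 35.2%. The count of rises was 11 without IL-2 replicate 1. The direction of calls over all genes moved with the centring of the arrays: 2873 genes were higher and 2222 lower as deposited, 3274 and 1574 with each array centred on the median of all probe sets, and 2439 and 3006 with each centred on the median of the tested genes. Under these centrings 21 and 16 members were called higher.

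In IL-12 cells compared with naive cells, 24 of 33 members rose (72.7%) and Sec61b fell (3.03%), where 31.2% of all tested genes were called higher and 26.7% lower. The median was 0.58, against 0.04 for all tested genes. Both IL-12 arrays lay above both naive arrays for 26 members, against 42.5% of all genes, and below them for 6, against 36.7%. A rise of over 1.5-fold was called for 16 members in IL-12 and for 10 in IL-2 cells against naive cells, against 20.3% and 15.6% of all genes. Both comparisons share the naive arrays, so their calls are not independent. Ern1, Hyou1, Hspa5, Calr, Canx and Pdia4 were called higher in IL-12 cells and were not called in IL-2 cells. For Ern1 and Hyou1 the direct test of IL-12 against IL-2 cells passed, and for Hspa5, Calr, Canx and Pdia4 it did not. As RNA was measured in bulk, more RNA per cell and more cells that carry it cannot be told apart.

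**Figure D4:**
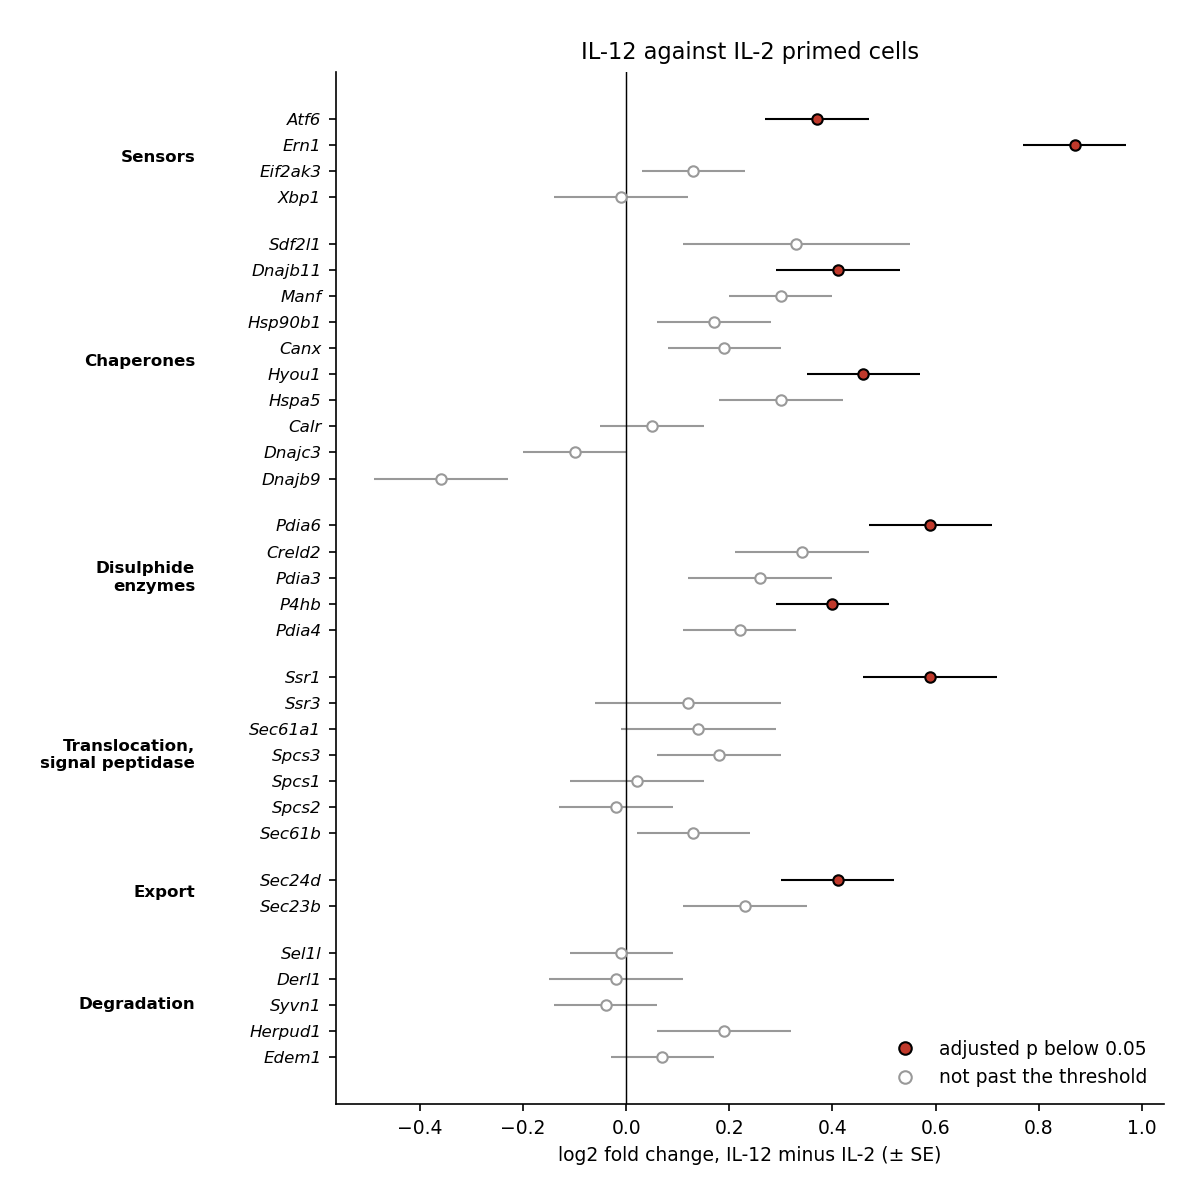
Log2 fold change of IL-12 over IL-2 cells for each member, with bars of 1 standard error; filled points passed an adjusted p of 0.05 in limma. The 8 filled points run from 0.37 (Atf6) to 0.87 (Ern1), and the points of the degradation genes lie between -0.04 and 0.19.

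Members whose promoters hold an exact ERSE or ERSE-II did not share a single pattern. Of these 10 genes, 7 rose in IL-12 against naive cells and 4 in IL-2 against naive cells, with medians of 0.42 and 0.26. Of the 17 tested members whose promoters hold neither, 12 and 10 rose, with medians of 0.64 and 0.44. Over all tested genes 31.2% and 25.8% rose in these comparisons. Between IL-12 and IL-2 cells 2 of the 10 and 4 of the 17 rose, where 9.82% of all tested genes did. Pdia6 and Creld2, shown first among the sequences above, rose over 2-fold in IL-12 cells, whereas Dnajc3 and Syvn1 carry the same fixed letters and had differences of -0.11 ± 0.10 and -0.08 ± 0.10. Ern1 held none of the 3 elements within its 300 bases.

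A list of 119 other genes of the same routes, of which 112 were tested, gave a wider view. Between IL-12 and IL-2 cells 6 of them rose and 6 fell (5.36% each), a smaller share than the 9.82% and 11.0% of all genes. Those that rose were Ero1a, the oxidase that recharges protein disulphide isomerase (1.66-fold, adjusted p = 0.0184), Ube2g2, a ubiquitin-conjugating enzyme of the degradation route (1.65-fold, adjusted p = 0.0137), Lman1, a cargo receptor for export (1.46-fold), Tmed10, a cargo receptor of transport vesicles (1.45-fold), the transcription factor gene Atf4 (1.41-fold) and Rpn2, a subunit of the glycosylation enzyme (1.27-fold). Among those that fell were Trib3, a pseudokinase induced by stress (-0.73 ± 0.13; adjusted p = 0.00494), the sulfhydryl oxidase gene Qsox1 (-0.62 ± 0.13; adjusted p = 0.0113), the reductase gene Dnajc10 (-0.47 ± 0.11), Herpud2 (-0.45 ± 0.10) and the lectin gene Erlec1 (-0.36 ± 0.11). The count of rises was 0 or 1 without any of the 4 primed arrays and 19 without either naive array, and the count of falls ran from 0 to 10.

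Ero1a read 10.85 and 10.29 in IL-12, 9.93 and 9.76 in IL-2 and 9.39 and 9.36 in naive cells, so the IL-12 arrays differed from each other by more than the IL-2 arrays did. Trib3 read 7.42 and 7.32 in IL-12, 8.06 and 8.13 in IL-2 and 7.38 and 7.06 in naive cells, high in IL-2 cells alone. Trib3 and Atf4 are both known from the stress response downstream of PERK, and they moved in opposite directions between IL-12 and IL-2 cells: Atf4 read 8.88 and 8.98 in IL-12, 8.58 and 8.29 in IL-2 and 8.06 and 8.08 in naive cells.

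Against naive cells more of these 112 genes rose: 56 rose and 13 fell in IL-12 cells (11.6% for the falls), and 48 rose and 8 fell in IL-2 cells (42.9% and 7.14%), beside the shares of all genes given above. The IL-2 count of rises was 24 without IL-2 replicate 1 and 23 without IL-2 replicate 2, and the IL-12 count 36 without IL-12 replicate 2. The other genes of the degradation route were among those that moved: of 17 tested, 8 rose and 3 fell in IL-12 cells (47.1% and 17.6%), and 8 rose and 1 fell in IL-2 cells (47.1% and 5.88%). For the remaining lists the share that rose in IL-12 cells was 62.5% (glycosylation), 54.5% (folding), 53.6% (export), 47.1% (translocation) and 25.0% (stress signalling). Vcp, the ATPase that pulls proteins out of the membrane, rose by 0.67 ± 0.10 in IL-12 and by 0.42 ± 0.10 in IL-2 cells, and Herpud2 fell by 0.99 and 0.53. Prdx4, the peroxidase that uses peroxide to drive disulphide formation, read 9.58 and 9.82 in IL-12, 9.15 and 9.18 in IL-2 and 6.56 and 7.09 in naive cells. Its rises of 2.88 ± 0.17 in IL-12 and 2.34 ± 0.17 in IL-2 cells were larger than that of any member. Dpagt1, which starts the sugar tree of glycoproteins, rose by 1.60 ± 0.14 and 1.20 ± 0.14 in IL-12 and IL-2 cells. The export receptor gene Lman1 rose by 1.34 ± 0.16 and 0.79 ± 0.16, the prolyl isomerase gene Fkbp2 by 1.27 ± 0.13 and 1.09 ± 0.13, and the translocon gene Ssr2 by 1.08 ± 0.14 and 0.90 ± 0.14. The coat scaffold gene Sec16a fell by 0.86 in IL-12 and by 0.89 in IL-2 cells. Mbtps1, the protease that cleaves ATF6, fell by 0.94 in IL-12 and by 0.64 in IL-2 cells, the reverse of the rise in Atf6.

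**Figure D5:**
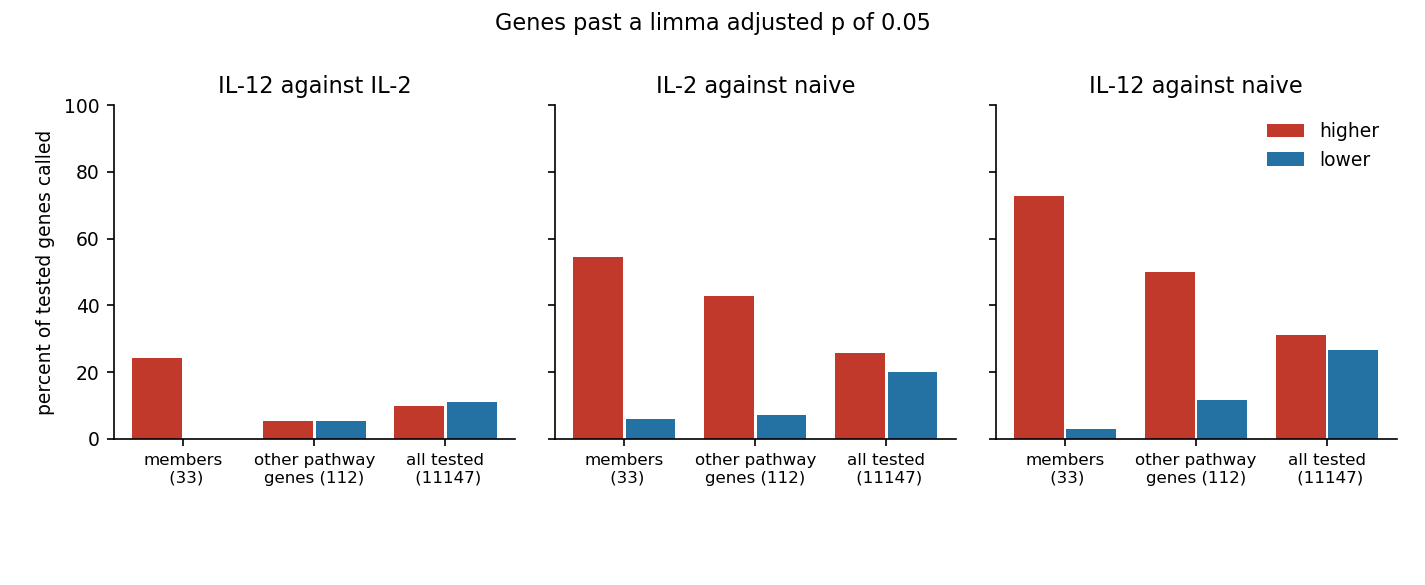
Percent of tested genes past a limma adjusted p of 0.05, higher (red) and lower (blue), in 3 comparisons, for the 33 members, 112 other genes of the same routes and all 11147 tested genes. Members were called higher at 24.2% in IL-12 against IL-2 cells, 54.5% in IL-2 against naive and 72.7% in IL-12 against naive cells.

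Cell type markers differed between the groups as well. The 6 measured CD8 T cell markers of 7 listed summed to a signal of 33800 and 33000 on the IL-12 arrays, 41900 and 43100 on the IL-2 arrays and 41200 and 45400 on the naive arrays. For all 6 both IL-12 arrays lay below both IL-2 arrays, and Cd8b1 (-0.44 ± 0.10), Cd3d (-0.57 ± 0.13) and Thy1 (-0.52 ± 0.11) were called lower in IL-12 than in IL-2 cells by limma (adjusted p from 0.0117 to 0.0149). The summed signal of the 9 measured B cell markers (of 10 listed) was 2360 on each IL-12 array, 1130 and 1120 on the IL-2 arrays and 5270 and 5310 on the naive arrays. Of those 9 markers, 7 were called higher in IL-12 than in IL-2 cells, and all 9 fell in either primed group against naive cells. The 5 measured plasma cell markers of 6 listed summed to 577 and 563 in IL-12, 496 and 425 in IL-2 and 1040 and 1130 in naive cells, and Sdc1 and Tnfrsf17 did not reach the filter. The 8 myeloid and dendritic markers summed to 766 and 800 in IL-12, 640 and 551 in IL-2 and 2080 and 2210 in naive cells. Of these, Cd14, Flt3 and Siglech did not reach the filter. Itgam did not follow the sum: it was called 1.20 ± 0.13 higher in IL-12 than in naive cells (limma adjusted p = 6.28e-05). In IL-2 cells Itgam differed from naive cells by 0.26 ± 0.13 and was not called. The 3 natural killer cell markers summed to 104 and 113 in IL-12, 92.3 and 92.4 in IL-2 and 161 and 147 in naive cells, and Cd4 read between 6.19 and 6.61 on every array. Neither the natural killer cell markers nor Cd4 reached the filter, and Klrb1c was lower on both IL-12 arrays than on both IL-2 arrays. Y-linked genes, absent from female cells, summed to 62.7 and 61.9 in IL-12, 55.3 and 59.3 in IL-2 and 58.9 and 62 in naive cells. Against naive cells the summed markers of the other cell types ran opposite to most members. Between IL-12 and IL-2 cells they ran the same way as the 8 members that rose, and the CD8 T cell markers ran the other way. Outside the B cell markers few were called higher in IL-12 than in IL-2 cells. They were 2 of 5 tested myeloid markers (Itgam and Mpeg1) and 1 of 3 tested plasma cell markers (Mzb1), where 9.82% of all tested genes were. The part of these shifts in the members' differences was not tested.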

How the data were processed

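Total RNA of 6 samples was hybridised to Affymetrix arrays, 1 array each. The authors deposited RMA values on the log2 scale for 35556 probe sets, per the submitters' processing notes. Its version and settings are not given in the sources used here. Because RMA gives arrays a like distribution, a shift common to most genes would not be seen. All 6 value columns belonged to samples (0 others), and groups were read from the titles.

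Names came from the platform annotation, updated through the RefSeq table of GRCm38.p6: 21789 probe sets had 1 symbol, 1621 several and 12146 none. For 19938 genes the probe set of highest mean stood for the gene, and 11147 genes with 2 or more of 6 arrays over 6.83, the 50th percentile of all values, were tested. limma 3.58.1 in R 4.3.3 (lmFit, eBayes, two-sided) fitted 1 mean per group to all arrays without a replicate block, on 3 residual degrees of freedom plus 5.62 from the prior, with Benjamini-Hochberg adjustment over the tested genes. It was also tried on simulated data, of which no outcome is given here, so the calls draw no support from that trial.

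The members and lists were chosen with earlier results of these data known. Values per array are given for members called between IL-12 and IL-2 cells, the sensors, Xbp1, Hspa5, Hsp90b1 and the 8 largest changes against naive cells; other genes of the routes are drawn from those called without overlap, at most 3 per list and comparison. Dnajb9, Edem1, Itgam, Klrb1c, the coat genes outside the members and the promoters printed were picked after values were seen. The alternatives tried changed the filter (none, or the 75th percentile), the probe sets (their mean), the scaling (quantiles, 2 ways of centring), the variance model or the samples (compared groups alone, each array left out in turn), or added the replicate block. Protein sequences were not analysed here.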

Additional observations from a re-analysis of the deposited data

Results flagged for a closer look

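Hyou1, the large chaperone that works with BiP, lay on opposite sides of the naive cells in the primed groups. It was 0.40 ± 0.11 above naive cells with IL-12 and -0.06 ± 0.11 from them with IL-2, and the difference between IL-12 and IL-2 cells was 0.46 ± 0.11 (limma adjusted p = 0.0194). The IL-2 side was not distinguishable from no change.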

How the results depend on the processing

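Of 99 changes of single members (33 members, 3 comparisons), no called one reversed its direction under the 15 alternative settings. Ern1 between IL-12 and IL-2 cells passed under each of them. Leaving out an array, with the lone array of a group assumed to vary like the other groups, gave 1 to 11 members higher and 0 lower between IL-12 and IL-2 cells, 11 to 20 higher and 1 to 2 lower in IL-2 against naive cells, and 20 to 24 higher and 1 to 2 lower in IL-12 against naive cells. For the other genes of the routes these ranges were 0 to 19 higher and 0 to 10 lower, 23 to 58 higher and 4 to 9 lower, and 36 to 59 higher and 6 to 14 lower, in the same order of comparisons. With all arrays kept, quantile normalization gave 2 members lower in IL-12 against naive cells (Sec61b and Edem1). Centring on the median of all probe sets raised the median change of all genes against naive cells to 0.11 (IL-2) and 0.16 (IL-12), against 0.01 and 0.04 as deposited; it left 1 member lower in IL-2 against naive cells, and 4 and 5 other genes lower in IL-2 and IL-12 against naive cells. Centring on the median of the tested genes, chosen after seeing the data, gave 13 other genes higher in IL-12 than in IL-2 cells, and 15 and 20 lower in IL-2 and IL-12 against naive cells. Fits of the compared groups alone gave 1 member lower in IL-2 against naive cells, and 19 other genes higher and 10 lower in IL-12 than in IL-2 cells. Over all genes these fits gave 1695 higher and 1838 lower in IL-12 than in IL-2 cells, against 1095 and 1226 with all 6 arrays. The cause was not tested.

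Same-numbered arrays deviated together only weakly (correlations of 0.153, 0.0152 and -0.0223 for the 3 comparisons), so the numbers were not taken to pair the arrays; whether anything is shared under a number is not stated. With the number as a replicate block, 8 members were higher in IL-12 than in IL-2 cells, 18 in IL-2 against naive and 24 in IL-12 against naive cells, and 0, 2 and 1 were lower. With 2 arrays a group, differences near 0.3 to 0.4 between IL-12 and IL-2 cells lay close to the threshold. RMA values carry no separate background signal, so background correction was not varied.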

Other observations

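Outside the members, 11 tested genes had an exact ERSE or ERSE-II in their promoter window, 3 of them on the list of other genes of the same routes. They were looked up after the members' results were seen. In IL-12 against naive cells 4 rose and 3 fell, where 31.2% of all tested genes rose and 26.7% fell, and in IL-2 against naive cells 4 rose and 3 fell, where 25.8% and 19.9% of all tested genes did. These counts lie close to the shares over all genes. Nucb1, which encodes a calcium-binding protein of the Golgi, was 0.40 ± 0.12 above naive cells in IL-12 and 0.92 ± 0.12 in IL-2 cells, and it fell by 0.52 in IL-12 against IL-2 cells (limma adjusted p = 0.019). Krtcap2, a subunit of the glycosylation enzyme, rose by 0.97 ± 0.13 and 0.69 ± 0.13 in IL-12 and IL-2 cells against naive cells. Ero1b, the second endoplasmic reticulum oxidase gene, fell by 0.51 in IL-2 against naive cells (adjusted p = 0.004). In IL-12 against naive cells Ero1b differed by -0.26 ± 0.10 and was not called. Its paralogue Ero1a rose by 1.20 ± 0.17 in IL-12 against naive cells, and in IL-2 against naive cells it differed by 0.47 ± 0.17 and was not called. Pan2, a subunit of a deadenylase, fell by 0.51 in IL-12 against IL-2 cells (adjusted p = 0.0142).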
